A study of Rattus norvegicus with 6 samples.

Results

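This report concerns 38 genes of DNA replication and cell division in rat liver, 19 that act in G1 and S phase and 19 that act in G2 and mitosis. They were taken by gene symbol from a fixed list, which was drawn up with earlier results of these data known, and all 38 were found among the 20104 genes of the deposited tables. RNA sequencing was carried out on repaired liver collected at day 14 after a trauma treated with either of 2 hemostatic dressings, in order to compare lasting inflammation between them. The 3 AKOC samples had received AKOC, a name the labels do not expand, in a series on kaolin anchored to cotton. The 3 Quik-clot samples had received the commercial dressing Quik-clot and were the controls. The labels give no strain, sex, age or transgene, do not say whether each sample came from an animal of its own, and no uninjured liver is among the samples. P-values therefore rest on the sample-to-sample spread alone, part of which may be technical.

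A dividing cell passes through G1, copies its DNA in S phase and separates the copies in mitosis. Genes needed for S phase are switched on by E2F transcription factors late in G1. Genes needed for mitosis follow later, by the MuvB complex with B-MYB and FOXM1 acting at CHR elements of their promoters. CCAAT elements, which are not sites of that complex, are often found in the same promoters. Most hepatocytes of an adult liver are at rest and re-enter the cycle after tissue loss or injury, while immune, endothelial and stromal cells of the wound also divide. In RNA from whole tissue, a change in the number of cells of a type and a change in RNA per cell cannot be told apart.

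Total counts ran from 40402312 to 41455378 per library. Hepatocyte transcripts dominated every library, with 8 markers such as albumin summing to between 118100 and 177800 CPM (counts scaled to a library of 1e+06) in AKOC libraries and between 103600 and 155800 CPM in Quik-clot libraries. Against these sums the division genes were scarce. The 19 G1/S genes together took 3378 to 4584 counts in AKOC libraries and 3080 to 3785 counts in Quik-clot libraries. The 19 G2/M genes took 619 to 844 counts in AKOC libraries and 444 to 1159 counts in Quik-clot libraries. Of the G1/S genes 7, and of the G2/M genes 10, had fewer than 10 counts in at least 1 library, so counting error alone is large for them. Per transcript length, all 19 G2/M genes averaged under 1 FPKM (fragments per kilobase and per 1e+06 counts) over the 6 libraries, from 0.0316 for Bub1b to 0.72 for Aurka. The G1/S genes ran from 0.0629 FPKM for E2f1 to 13.1 FPKM for Pcna, with 11 of them under 1 FPKM.

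The promoters of the G1/S and G2/M genes differed in the motifs they hold. RefSeq promoter windows (build GRCr8, 250 bases before to 50 after the first listed start of each gene) were matched for 28 of the 38 genes, 13 of G1/S and 15 of G2/M; Mcm4, Rrm2, Cdc6, Ccne2, Ccnd1, E2f1, Ccna2, Aurkb, Foxm1 and Tpx2 were not matched. The E2F motif, searched on both strands as TTTCCCGC, TTTCGCGC, TTTGCCGC or TTTGGCGC, was found in 7 of 13 G1/S windows, 1 of 15 G2/M windows and 2.25% of all 27457 windows. The CHR motif, searched as TTTGAA or TTCGAA, was found in 10 of 15 G2/M windows, 3 of 13 G1/S windows and 19.5% of all windows. At least 2 copies of CCAAT, also on either strand, were found in 9 of 15 G2/M windows, 4 of 13 G1/S windows and 11.5% of all windows. A match of letters is a description and not a measured binding site.

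The 150 bases before the start are shown for 3 G1/S genes with an E2F motif, among them Mcm6 and Tyms, which had 2 of the 3 smallest p-values of that class, and for 3 G2/M genes with CHR and CCAAT motifs, among them Ccnb2 and Mki67, both highest in Quik-clot replicate 2. Each reads 5′ to 3′ on the gene's strand, with E2F, CHR and CCAAT matches in capitals, on either strand, so that ATTGG is CCAAT read from the other strand. Adjacent or overlapping matches run together, as do the overlapping E2F matches of Mcm6, the E2F and CCAAT matches of Mcm7 and the second CHR match and a CCAAT match of Mki67.
Mcm6 (chr13:42404353-42404502, minus strand): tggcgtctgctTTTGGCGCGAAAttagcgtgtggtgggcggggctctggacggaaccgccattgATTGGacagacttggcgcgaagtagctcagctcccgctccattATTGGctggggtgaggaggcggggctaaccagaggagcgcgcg
Mcm7 (chr12:22163179-22163328, minus strand): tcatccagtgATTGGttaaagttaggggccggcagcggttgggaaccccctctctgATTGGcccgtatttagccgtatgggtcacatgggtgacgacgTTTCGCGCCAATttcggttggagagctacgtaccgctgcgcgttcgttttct
Tyms (chr9:120776084-120776233, minus strand): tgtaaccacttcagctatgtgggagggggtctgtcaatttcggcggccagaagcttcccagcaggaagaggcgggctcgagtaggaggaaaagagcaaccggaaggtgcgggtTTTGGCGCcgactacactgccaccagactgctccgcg
Ccnb2 (chr8:79981659-79981808, minus strand): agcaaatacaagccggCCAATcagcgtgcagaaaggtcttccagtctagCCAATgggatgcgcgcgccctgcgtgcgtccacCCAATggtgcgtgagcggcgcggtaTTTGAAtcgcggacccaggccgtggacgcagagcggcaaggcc
Cdc20 (chr5:137255800-137255949, minus strand): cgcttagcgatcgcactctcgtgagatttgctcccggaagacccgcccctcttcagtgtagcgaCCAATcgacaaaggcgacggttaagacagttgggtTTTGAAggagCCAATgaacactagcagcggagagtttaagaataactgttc
Mki67 (chr1:199952594-199952743, minus strand): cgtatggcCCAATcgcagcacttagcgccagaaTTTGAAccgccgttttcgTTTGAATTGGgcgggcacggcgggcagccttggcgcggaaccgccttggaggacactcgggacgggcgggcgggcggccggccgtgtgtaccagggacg

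**Figure D1:**
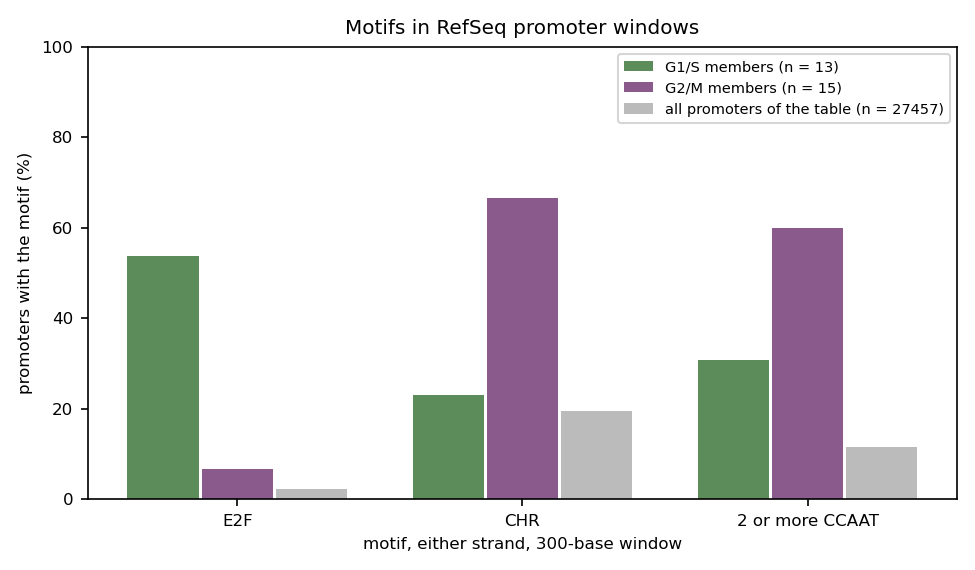
Share of promoter windows (vertical axis, percent) that hold each motif (horizontal axis) among 13 G1/S genes, 15 G2/M genes and all 27457 windows of the RefSeq table. E2F motifs stand out in the G1/S bars (53.8%) and CHR motifs in the G2/M bars (66.7%).

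The division genes were compared between the dressings in the same samples, although the study's stated interest was inflammation. No member rose or fell by the test used: edgeR's quasi-likelihood test with Benjamini-Hochberg adjustment over 13872 tested genes called 0 of 37 tested members, and it called 0% of all tested genes in either direction. At an unadjusted p under 0.05, 3 of 19 G1/S members were higher after AKOC and 0 lower, where 6.78% of all tested genes were higher and 5.69% lower. The 3 (Mcm6, Rrm2 and Tyms) became 1 when AKOC replicate 1, AKOC replicate 3, Quik-clot replicate 1 or Quik-clot replicate 3 was left out, and 4 without Quik-clot replicate 2. None of the 18 tested G2/M members reached that level in either direction with all 6 libraries. The smallest adjusted p of a member was 0.361, for Mcm6. With limma-voom the smallest adjusted p of a member was 0.302 and with DESeq2 0.192, and both called 0 members, although DESeq2 called 1.34% of the genes it adjusted as higher and 0.679% as lower.

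Most members lay on the positive side all the same. Of the G1/S genes 16 had a positive log2 fold change (AKOC over Quik-clot) and 3 a negative one, with a median of 0.46. Of the tested G2/M genes 12 were positive and 6 negative, with a median of 0.34. Over all tested genes 48% were positive and the median was -0.01. Genes of a shared process can move together, so these signs are not independent of one another. The summed G1/S level was 103, 90.2 and 89.8 CPM in AKOC libraries and 74.1, 86.8 and 83.2 CPM in Quik-clot libraries. On this scale the dressings did not overlap. Summed FPKM, scaled by library totals alone, did overlap. It was 43.0, 31.1 and 32.9 in AKOC libraries and 32.4, 34.7 and 29.8 in Quik-clot libraries. Of the summed CPM, 48.6% came from Pcna, Tyms and Rrm1. The summed G2/M level was 18.9, 18.5 and 16.1 CPM in AKOC libraries and 9.86, 26.6 and 12 CPM in Quik-clot libraries. For the G2/M sum, Quik-clot held both the highest and the 2 lowest libraries.

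**Figure D2:**
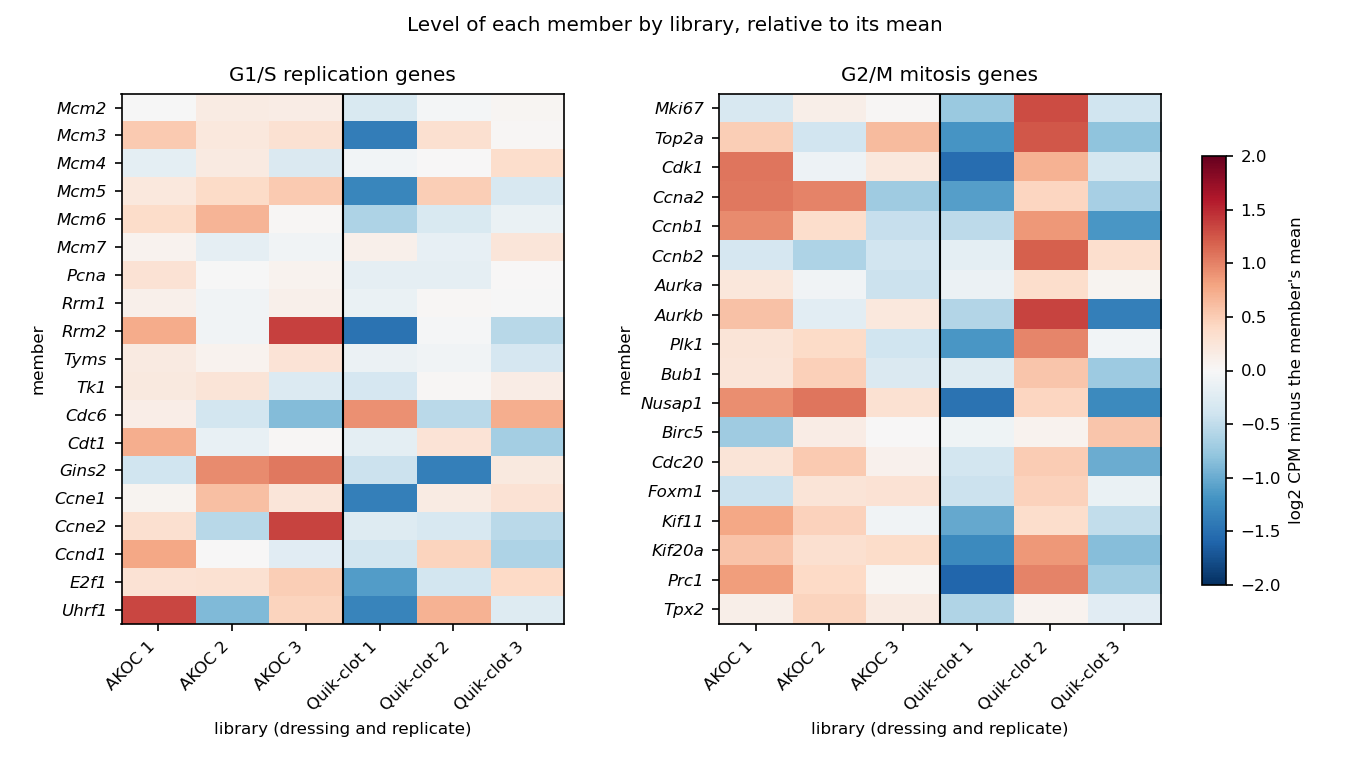
Level of each tested member (rows) in each library (columns; AKOC left and Quik-clot right of the line), as log2 CPM with a prior count of 2 minus the member's mean over the 6 libraries. In the G2/M panel Quik-clot replicate 2 is highest for 10 of 18 genes and Quik-clot replicate 1 lowest for 10 of 18, and an AKOC library is highest for 7, such as Nusap1 and Tpx2. The G1/S panel has Quik-clot replicate 1 lowest for 11 of 19 genes.

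The helicase that unwinds DNA at replication origins is the hexamer of MCM2 to MCM7, and none of its 6 genes was called. Mcm6 stood at 2.72, 3.39 and 2.14 CPM in AKOC libraries and 1.35, 1.70 and 1.92 CPM in Quik-clot libraries. Its levels did not overlap between dressings, and its log2 fold change was 0.73 ± 0.26 (SE), adjusted p 0.361. Mcm2 averaged 4.91 ± 0.324 CPM with AKOC, against 4.25 ± 0.53 CPM with Quik-clot (mean ± SD, n = 3 each, as for all means here).

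Mcm3 averaged 1.57 ± 0.185 CPM with AKOC, against 1.07 ± 0.57 CPM with Quik-clot, and Mcm5 averaged 1.22 ± 0.139 CPM with AKOC, against 0.802 ± 0.495 CPM with Quik-clot. In both, Quik-clot replicate 1 stood apart at 0.435 and 0.348 CPM, while Quik-clot replicate 2 (1.54 and 1.33 CPM) was within the AKOC range. Mcm4 had a negative log2 fold change of -0.20 ± 0.19, at 6.19 ± 1.08 CPM with AKOC, against 7.13 ± 1.16 CPM with Quik-clot. Mcm7 did as well (-0.13 ± 0.16), at 6.74 ± 0.588 CPM with AKOC, against 7.38 ± 1.06 CPM with Quik-clot. The gap between Mcm6 and its partners was not tested.

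Among the factors that load and start the helicase, Cdc6, which places the MCM ring on DNA, had the lowest log2 fold change of the G1/S class, -0.89 ± 0.58. It stood at 0.359, 0.24 and 0.157 CPM in AKOC libraries and 0.653, 0.206 and 0.567 CPM in Quik-clot libraries, from 6 to 30 counts, and the dressings overlapped through Quik-clot replicate 2. Its partner in loading, Cdt1, averaged 0.406 ± 0.156 CPM with AKOC, against 0.295 ± 0.112 CPM with Quik-clot. Gins2, a subunit of the complex that activates the loaded helicase, stood at 0.18, 0.534 and 0.574 CPM in AKOC libraries and 0.174, 0.0688 and 0.297 CPM in Quik-clot libraries. It rested on 3 to 22 counts, overlapped through AKOC replicate 1 and had a log2 fold change of 1.25 ± 0.69 (adjusted p 0.487).

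Enzymes of nucleotide supply gave the other small p-values. Rrm2, the regulated subunit of ribonucleotide reductase that limits deoxynucleotide supply in S phase, stood at 1.39, 0.774 and 2.16 CPM in AKOC libraries and 0.261, 0.802 and 0.54 CPM in Quik-clot libraries. Quik-clot replicate 2 exceeded AKOC replicate 2, so the dressings overlapped, and the log2 fold change was 1.43 ± 0.52 (adjusted p 0.364). Rrm1, the large subunit, which is also present outside S phase, was nearly level at 13.6 ± 0.879 CPM with AKOC, against 12.8 ± 0.755 CPM with Quik-clot.

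Tyms, thymidylate synthase, stood at 15.9, 14.8 and 17.1 CPM in AKOC libraries and 13.1, 13.4 and 11.2 CPM in Quik-clot libraries. In CPM the dressings did not overlap, and the log2 fold change was 0.34 ± 0.13 (adjusted p 0.365). In FPKM they did, as AKOC replicate 2 (2.66) lay below Quik-clot replicates 1 and 2 (2.91 and 2.85). Tk1, the thymidine kinase of the salvage route, averaged 8.51 ± 1.63 CPM with AKOC, against 7.80 ± 1.30 CPM with Quik-clot and overlapped. Mcm6 and Tyms were thus the G1/S members without overlap in CPM, 2 of 19, both higher after AKOC. That is close to the 9.53% of all tested genes that lay without overlap on that side.

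Pcna, the sliding clamp of DNA polymerases, was the most abundant member per length. It stood at 18.4, 15 and 15.8 CPM in AKOC libraries and 13.2, 13.3 and 15.2 CPM in Quik-clot libraries, with a log2 fold change of 0.24 ± 0.13 (adjusted p 0.48). Only Quik-clot replicate 3 reached into the AKOC range. Uhrf1, which carries DNA methylation over to the new strand, ranged from 0.107 to 0.673 CPM in AKOC libraries and from 0.0653 to 0.413 CPM in Quik-clot libraries on 3 to 30 counts.

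Ccnd1, cyclin D1, which drives resting hepatocytes into the cycle, stood at 17.6, 10.3 and 8.68 CPM in AKOC libraries and 7.88, 13.9 and 6.65 CPM in Quik-clot libraries. The highest library of each dressing, AKOC replicate 1 and Quik-clot replicate 2, lay above all the others, and the log2 fold change was 0.36 ± 0.35 (adjusted p 0.68). Cyclins E1 and E2, which act with CDK2 at the entry to S phase, had log2 fold changes of 0.53 ± 0.59 (Ccne1) and 1.07 ± 0.62 (Ccne2). For Ccne2 the AKOC libraries spread from 0.187 to 0.835 CPM and the Quik-clot libraries only from 0.189 to 0.239 CPM. The transcription factor E2f1 averaged 0.45 ± 0.0396 CPM with AKOC, against 0.281 ± 0.166 CPM with Quik-clot, and Quik-clot replicate 3 (0.459 CPM) overlapped with the AKOC libraries.

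**Figure D3:**
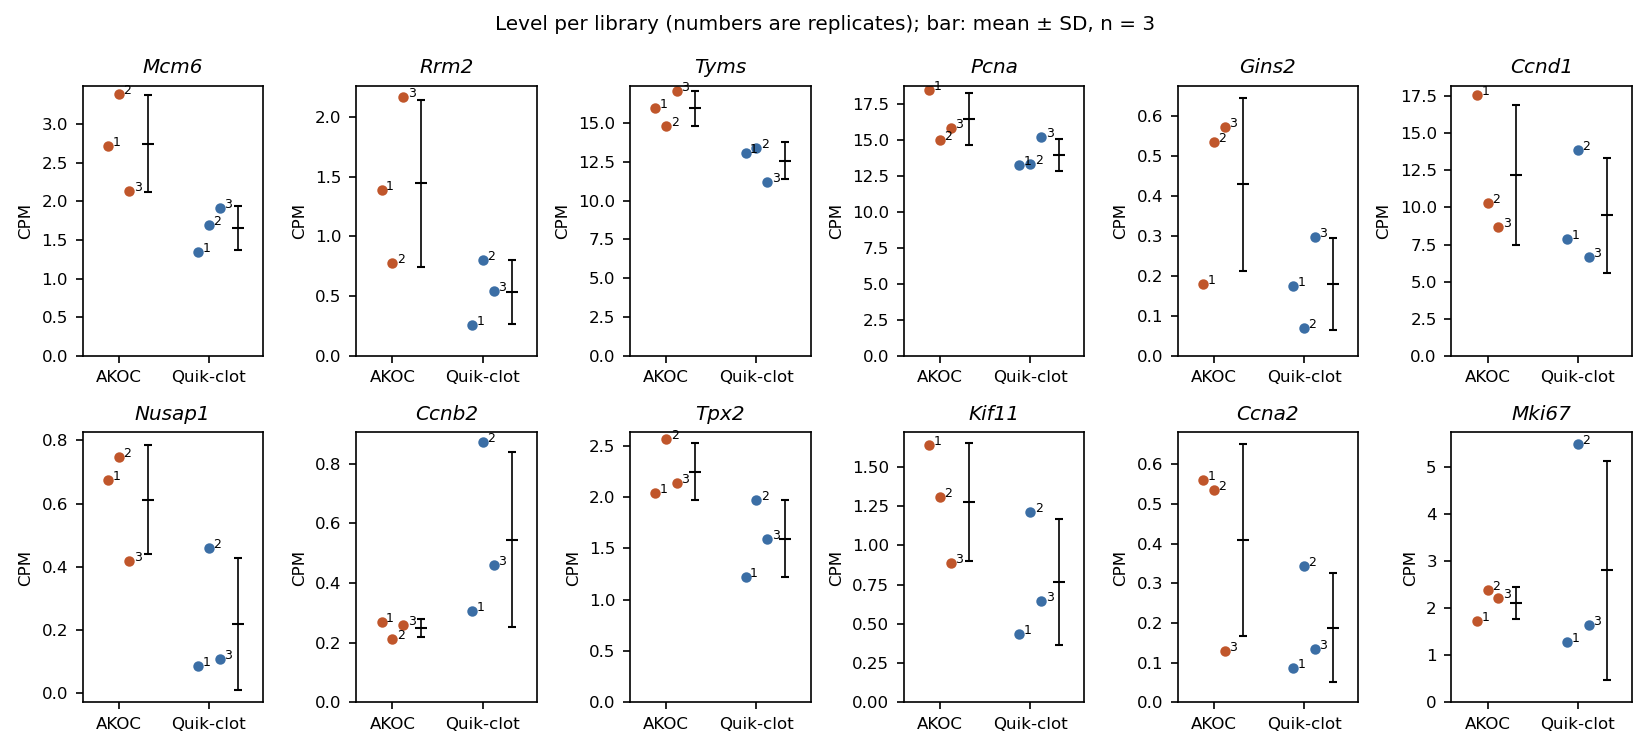
Level in CPM (vertical axes, from 0 unless an error bar reaches lower) of 12 members in each library, AKOC left and Quik-clot right, with replicate numbers beside the points and bars for mean ± SD (n = 3). Mcm6, Tyms and Tpx2 do not overlap, higher after AKOC, Ccnb2 does not overlap, lower after AKOC, and Mki67 shows Quik-clot replicate 2 at 5.48 CPM above all the others.

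Among the G2/M genes a single library stood out. Mki67, the Ki-67 protein of the chromosome surface and the usual stain for dividing cells, stood at 1.73, 2.38 and 2.22 CPM in AKOC libraries and 1.28, 5.48 and 1.65 CPM in Quik-clot libraries. Quik-clot replicate 2 held 239 counts and was 2.31 times the next highest library, while the other Quik-clot libraries were below all AKOC libraries. The log2 fold change of -0.41 ± 0.54 (adjusted p 0.765) thus carried the sign of that library. Top2a, the topoisomerase that untangles sister chromosomes, had the same shape at 2.25, 1.20 and 2.48 CPM in AKOC libraries and 0.675, 3.81 and 0.892 CPM in Quik-clot libraries.

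Of the 18 tested G2/M genes, 10 were highest in Quik-clot replicate 2, against 16.3% of all tested genes, and 0 of 19 G1/S genes were. The 10 were Mki67, Top2a, Ccnb2, Aurka, Aurkb, Plk1, Bub1, Foxm1, Kif20a and Prc1. The G1/S genes were instead highest in AKOC replicate 1 (6 genes), AKOC replicate 2 (4) or AKOC replicate 3 (6), and in Quik-clot replicate 3 for 2 genes and Quik-clot replicate 1 for 1. Of all tested genes, 14%, 13.4% and 17% were highest in AKOC replicates 1, 2 and 3, and 19.3% and 20% in Quik-clot replicates 1 and 3. At the other end, Quik-clot replicate 1 was lowest for 10 of 18 G2/M genes and 11 of 19 G1/S genes, against 20.3% of all tested genes. The ratio of the highest to the lowest library of a dressing had a median of 1.80 within AKOC and 4.27 within Quik-clot over the G2/M genes. Over all tested genes it was 1.30 within AKOC and 1.39 within Quik-clot, and over the G1/S genes 1.45 within AKOC and 2.09 within Quik-clot. Counting error widens this ratio at low counts, and all tested genes were not matched to the members in level.

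The cyclins of mitosis did not share a direction. Ccna2, cyclin A2, which acts in S phase and G2, stood at 0.561, 0.534 and 0.13 CPM in AKOC libraries and 0.0871, 0.344 and 0.135 CPM in Quik-clot libraries, with AKOC replicate 3 as low as the low Quik-clot libraries (log2 fold change 1.11 ± 0.74). Ccnb1, cyclin B1, averaged 0.413 ± 0.21 CPM with AKOC, against 0.30 ± 0.26 CPM with Quik-clot. Ccnb2, cyclin B2, stood at 0.269, 0.214 and 0.261 CPM in AKOC libraries and 0.305, 0.871 and 0.459 CPM in Quik-clot libraries. All Quik-clot libraries were above all AKOC libraries, on 8 to 38 counts, with a log2 fold change of -1.12 ± 0.52 (adjusted p 0.421). Cdk1, the kinase that both B cyclins activate, averaged 0.669 ± 0.321 CPM with AKOC, against 0.42 ± 0.33 CPM with Quik-clot.

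Kinases and checkpoint genes overlapped throughout. Aurka and Aurkb, the Aurora kinases of the spindle poles and of the chromosome passenger complex, had log2 fold changes of -0.17 ± 0.27 and -0.05 ± 0.79, and Plk1, the Polo-like kinase of mitotic entry, -0.06 ± 0.70. Birc5 (survivin), another passenger subunit, was highest in Quik-clot replicate 3, at 0.561, 1.07 and 0.965 CPM in AKOC libraries and 0.892, 1.01 and 1.43 CPM in Quik-clot libraries. Bub1, a kinase of the spindle checkpoint, averaged 1.31 ± 0.348 CPM with AKOC, against 1.12 ± 0.54 CPM with Quik-clot. Bub1b, its relative in the same checkpoint, had 1 to 16 counts, was below the filter on low counts and was not tested, with its highest library again Quik-clot replicate 2 (0.367 CPM). Cdc20, which activates the anaphase-promoting complex, had a log2 fold change of 0.47 ± 0.43, and the mitotic transcription factor Foxm1 0.05 ± 0.38.

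Spindle and cytokinesis genes held the smallest p-values of the class on the positive side. Nusap1, a microtubule-binding protein of the spindle, stood at 0.673, 0.748 and 0.417 CPM in AKOC libraries and 0.0871, 0.458 and 0.108 CPM in Quik-clot libraries, or 4 to 30 counts, with a log2 fold change of 1.47 ± 0.66 (adjusted p 0.411). Tpx2 activates Aurora A on the spindle. It stood at 2.04, 2.56 and 2.14 CPM in AKOC libraries and 1.22, 1.97 and 1.59 CPM in Quik-clot libraries. These did not overlap (0.49 ± 0.26, adjusted p 0.458), but in FPKM Quik-clot replicate 2 (0.633) exceeded AKOC replicate 3 (0.61). Kif11, the motor that pushes spindle poles apart, stood at 1.64, 1.31 and 0.887 CPM in AKOC libraries and 0.435, 1.22 and 0.648 CPM in Quik-clot libraries (0.74 ± 0.44). Prc1, which bundles the central spindle, and Kif20a, a motor of the same structure, had 0.54 ± 0.69 and 0.59 ± 0.67. Of the 18 tested G2/M genes, Tpx2 alone lay without overlap above in CPM and Ccnb2 alone below, where 9.53% and 8.84% of all tested genes did so.

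Since so many G2/M genes peaked in Quik-clot replicate 2, the values without it are given as well. The emphasis on that library was chosen after its values were seen. Leaving out a Quik-clot library raises the log2 fold change of genes high in it by construction. The shift of the G2/M genes is therefore a description and no support for a difference. The shares of all tested genes were not selected in this way. Of the 18 tested G2/M genes 15 were then positive and 3 negative, with a median log2 fold change of 1.12, where the median over all tested genes was 0.00. At an unadjusted p under 0.05, 7 were higher (Top2a, Nusap1, Cdc20, Kif11, Kif20a, Prc1 and Tpx2) and 0 lower, where 9.8% of all tested genes were higher and 7.59% lower. Levels did not overlap for 11 genes above and 1 below, where 18.5% of all tested genes lay above in this comparison of 3 against 2 libraries. Mki67 turned positive, at 0.52 ± 0.28, and Aurkb and Plk1 did too. Still 0 members were called; the smallest adjusted p was 0.131, for Nusap1, while 0.0848% of all tested genes were called higher and 0.0424% lower. Among the G1/S genes 4 were higher at an unadjusted p under 0.05 (Mcm5, Mcm6, Rrm2 and Tyms) and 1 lower (Cdc6), with a median of 0.75. Levels of 7 G1/S genes then lay without overlap above and of 2 below, where 17.3% of all tested genes lay below.

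**Figure D4:**
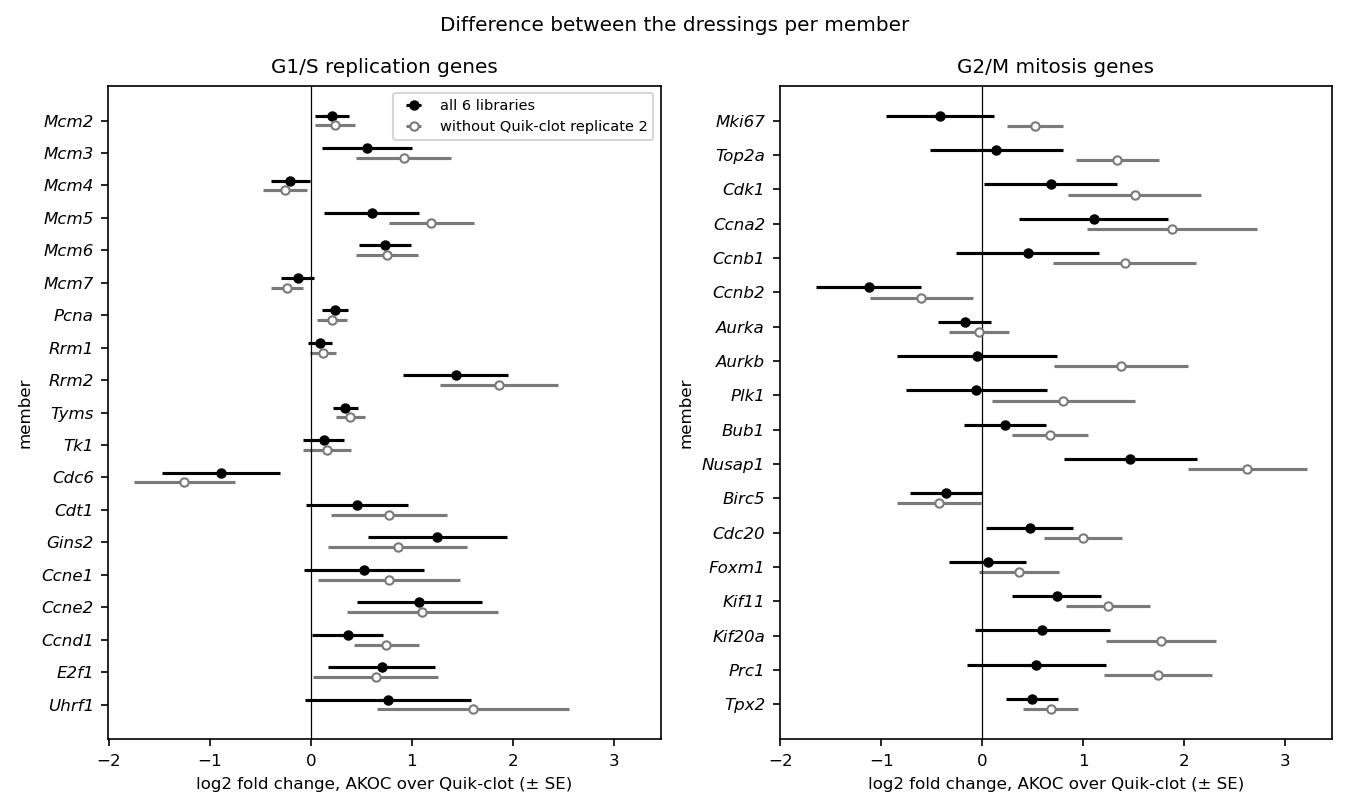
Log2 fold change, AKOC over Quik-clot, with its SE (horizontal axis) for each tested member, with all 6 libraries (filled) and without Quik-clot replicate 2 (open). Without that library 15 of 18 G2/M genes are positive, against 12 with it. The G1/S genes are positive in 16 of 19 either way. The library was chosen after its values were seen, and leaving it out raises genes high in it by construction.

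Markers of other cell types moved with the same libraries. Quik-clot replicate 2 was the highest library for 8 of 8 tested T and NK cell markers. The same held for 10 of 11 macrophage and Kupffer cell markers, against 16.3% of all tested genes. The 9 T and NK cell markers summed to between 52.5 and 73.4 CPM in AKOC libraries. In Quik-clot libraries they summed to 72.2, 114 and 69.5 CPM. Most of each sum was Cd4, at 50.2, 59.75 and 41.4 CPM in AKOC libraries and 58.3, 75.6 and 56.2 CPM in Quik-clot libraries. The 11 macrophage markers summed to between 932 and 1319 CPM in AKOC libraries and to 1160, 1729 and 1427 CPM in Quik-clot libraries. Log2 fold changes were negative for all 8 tested T and NK cell markers and all 11 macrophage markers. Over all tested genes 48% were positive. AKOC replicate 3 was lowest for 10 macrophage and 4 T and NK cell markers, against 17.7% of all tested genes. None of these markers was at 0 in all libraries. Their part in the G2/M levels was not tested.

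Quik-clot replicate 1, the library lowest for most members, was also lowest for the summed erythroid, stellate cell, neutrophil and hepatocyte markers. By gene it was lowest for 5 of 8 tested stellate cell, 2 of 3 neutrophil and 4 of 8 hepatocyte markers. Of all tested genes, 20.3% were lowest there. The hepatocyte marker Cps1 (7022 CPM) and the neutrophil markers Ngp (35 counts) and Mpo (3 counts) were instead highest there. Both neutrophil genes were below the filter. That library was also highest for the summed bile duct markers. The 6 erythroid genes in the table summed to 509, 157 and 222 CPM in AKOC libraries and to 16.0, 82.7 and 248 CPM in Quik-clot libraries. Most of each sum was Hbb, at 480, 142 and 206 CPM in AKOC libraries and 8.97, 76.05 and 224 CPM in Quik-clot libraries. Of the 5 tested, 4 were lowest in Quik-clot replicate 1, while Slc4a1 was highest there (6.83 CPM). Klf1, a gene of red cell precursors chosen after its values were seen, was below the filter. It had 7, 4 and 4 counts in AKOC libraries and 0, 2 and 0 counts in Quik-clot libraries. The 8 stellate cell and fibroblast markers summed to between 231 and 295 CPM in AKOC libraries and to 114, 255 and 184 CPM in Quik-clot libraries. The 6 bile duct markers summed to 15.7, 17.9 and 20.6 CPM in AKOC libraries and to 25.3, 14.1 and 21.0 CPM in Quik-clot libraries. The 7 sinusoidal endothelial markers summed to 403, 387 and 369 CPM in AKOC libraries and to 464, 414 and 471 CPM in Quik-clot libraries. Endothelial sums in CPM were thus higher in each Quik-clot library than in any AKOC library, with Quik-clot replicate 2 the lowest of its dressing. Summed FPKM overlapped, at 125.8 in AKOC replicate 1 against 113 to 125.2 in Quik-clot libraries. Clec4g and Cdh5 were each highest in an AKOC library. The 6 B and plasma cell markers summed to 118, 68.3 and 66.6 CPM in AKOC libraries and to 87.6, 83.5 and 107 CPM in Quik-clot libraries. The 7 neutrophil markers in the table summed to 44.8, 29.5 and 11.7 CPM in AKOC libraries and to 7.68, 17.7 and 104 CPM in Quik-clot libraries. The part of these cells in the levels of the division genes was not tested either.

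**Figure D5:**
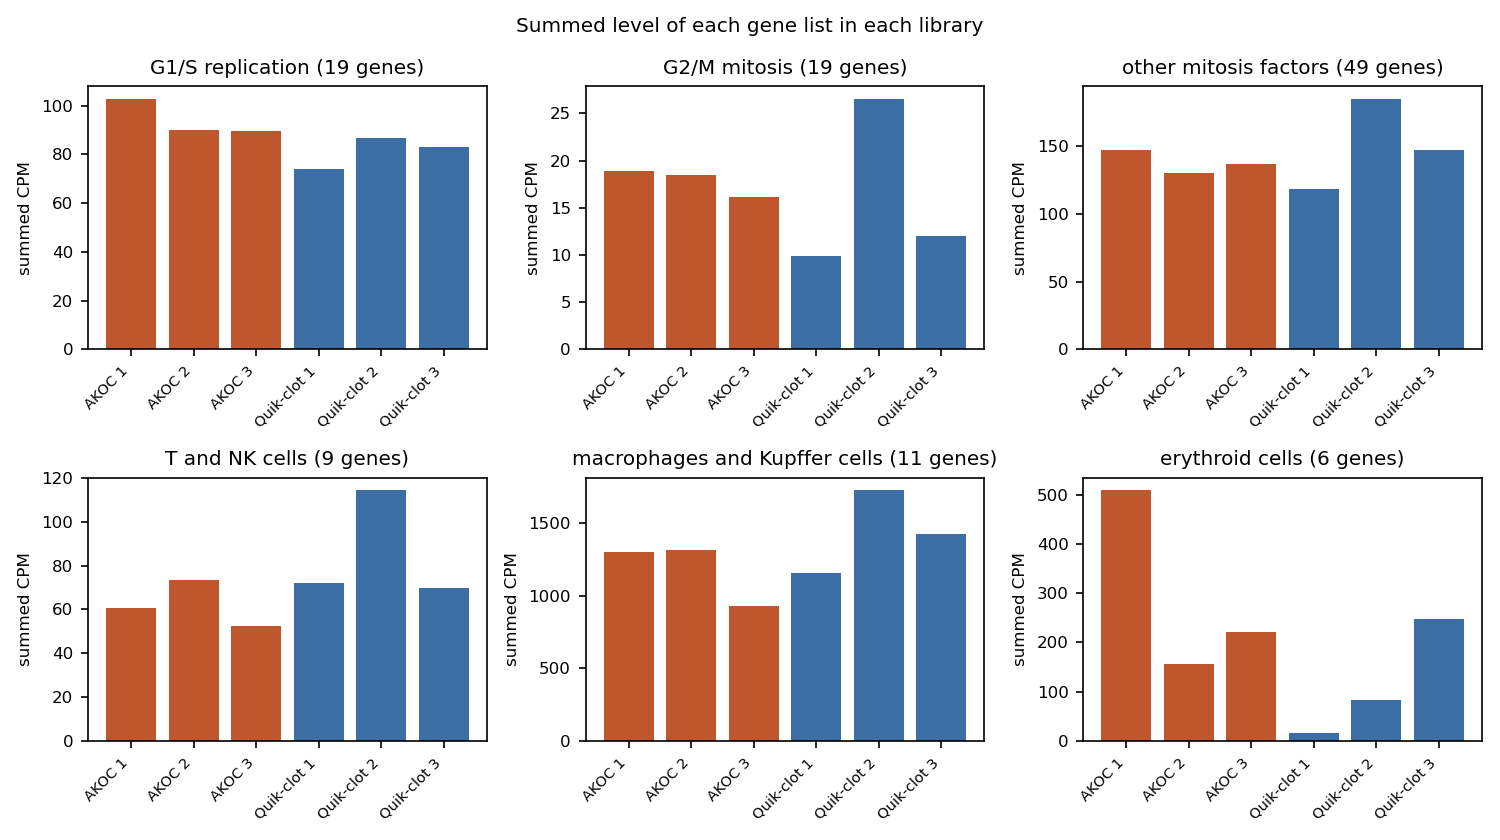
Summed CPM of 6 gene lists in each library (bars from 0; AKOC left, Quik-clot right; the number of genes summed is in each title). Quik-clot replicate 2 is highest for the G2/M genes (26.6 CPM), the other mitosis factors (185 CPM), the T and NK cell markers (114 CPM) and the macrophage markers (1729 CPM), but not for the G1/S genes (86.8 CPM). Cd4 alone held 75.6 CPM of that T and NK cell sum.

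Further genes of the same machinery were counted in the same way. Of 33 tested further replication factors, such as polymerase, primase and clamp loader subunits, 28 were positive and 5 negative (median 0.22). At an unadjusted p under 0.05, 5 were higher and 0 lower, where 6.78% of all tested genes were higher and 5.69% lower, and 0 were called. The 5 were Rpa1 (0.53 ± 0.12) and Rpa3 (0.48 ± 0.16), subunits of the protein that coats single-stranded DNA, the primase Prim1 (0.68 ± 0.17), Rnaseh2a (0.34 ± 0.13) and Gins1 (1.15). Levels lay without overlap above for 7 of the 33 and below for 0, where 9.53% of all tested genes lay above and 8.84% below. Their summed level was 293, 312 and 273 CPM in AKOC libraries and 247, 242 and 219 CPM in Quik-clot libraries, and Quik-clot replicate 2 was highest for 3 of them. Of 34 tested further mitosis factors, 17 were positive and 17 negative (median 0.02), 0 reached an unadjusted p under 0.05, and 17 were highest in Quik-clot replicate 2. The nearest were Cdca8 (0.83 ± 0.37), Cdca2 (1.12), Smc2 (-0.26) and Kif18a (0.72).

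Regulators of the cycle lay on both sides. Of 19 tested cyclins, CDKs and their regulators, 3 were higher and 3 lower at an unadjusted p under 0.05, against 6.78% and 5.69% of all tested genes, and 0 were called. The higher ones included Cdk6, a partner of D cyclins (0.59 ± 0.14), and Ccng2, a cyclin associated with arrest (1.005 ± 0.25). The lower ones included Cks1b, a CDK subunit (-0.47 ± 0.13), and Cdk2, the partner of the E cyclins (-0.52 ± 0.17). Of 9 tested CDK inhibitors and pocket proteins, 3 were higher and 0 lower at that level, against the same shares of all tested genes. Cdkn1a (p21), which blocks CDKs, stood at 34.9, 8.57 and 16.3 CPM in AKOC libraries and 3.09, 1.28 and 7.67 CPM in Quik-clot libraries (2.32 ± 0.72, adjusted p 0.322). Its lowest value was in Quik-clot replicate 2, the library with the highest G2/M sum (26.6 CPM). Other libraries went the other way. AKOC replicate 1, highest for Cdkn1a, had a G2/M sum of 18.95 CPM. Quik-clot replicate 1, at 3.09 CPM of Cdkn1a, had the lowest G2/M sum, 9.86 CPM. A link between Cdkn1a and the G2/M level was not tested. Cdkn2b (p15) had 1.28 ± 0.39 and the retinoblastoma gene Rb1 0.46 ± 0.17.

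Of 14 tested E2F, MuvB and MYB genes, 2 were higher and 1 lower at an unadjusted p under 0.05, where 6.78% of all tested genes were higher and 5.69% lower. Mybl1 (1.09 ± 0.44) and the MuvB subunit Lin9 (0.65 ± 0.28) were the higher ones and the MuvB subunit Lin52 (-0.43) the lower one. Mybl2, which encodes B-MYB, was below the filter at 37, 17 and 7 counts in AKOC libraries and 1, 4 and 5 counts in Quik-clot libraries, without overlap. Of 16 tested liver growth factors and receptors, 2 were higher and 1 lower, against those same shares, with Egfr, the epidermal growth factor receptor, at 0.70 ± 0.27. Rspo3 (0.81) was the other higher gene and Lgr5 (-0.85) the lower one. Of 16 quiescence and anti-proliferative genes, 14 were negative and 2 positive, where 48% of all tested genes were positive. At an unadjusted p under 0.05, 4 were lower and 0 higher, where 5.69% of all tested genes were lower and 6.78% higher. AKOC replicate 3 was the lowest library for 12 of the 16 and Quik-clot replicate 3 the highest for 10 of the 16, where 17.7% and 20% of all tested genes were, and the part of these libraries in the counts was not tested. The 4 lower genes were Gadd45b (-1.48 ± 0.38) and Gadd45a (-1.07), induced by stress, the hepatocyte factor Hnf4a (-0.41) and Txnip (-0.37). None of these lists held a called gene.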

How the data were processed

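RNA of 3 AKOC and 3 Quik-clot liver samples was sequenced; groups and replicate numbers were read from the sample labels. The authors deposited whole-number counts per gene without normalization, and FPKM per gene, for 20104 genes, which equal count over length and library total (largest relative error 8.85e-07). The submitters' processing notes name fastp, HISAT2, HTSeq and mRatBN7.2; versions, annotation and strand setting are not stated there or in the labels, so reads of overlapping antisense genes cannot be told apart.

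Genes with low counts were removed with edgeR's filterByExpr (minimum count 10, minimum total 15), which left 13872. Counts were scaled by TMM (factors 0.9023 to 1.1204) and given as CPM, per 1e+06 counts. The dressings were compared across all tested genes with the two-sided quasi-likelihood F test of edgeR 4.0.16 (R 4.3.3), Benjamini-Hochberg adjusted over those 13872 genes, with a call at an adjusted p under 0.05; SE is the log2 fold change over the square root of F. The script was tested on simulated data. No pair of libraries of a dressing agreed within sampling noise (chi-square per degree of freedom at least 142). The closest pair of all crossed the dressings, AKOC replicate 1 against Quik-clot replicate 2, at 72.9. An exact permutation test of 3 against 3 cannot go below 0.1. Alternatives used DESeq2 1.42.0 and limma 3.58.1. The members and gene lists were chosen with earlier results of these data known, so no test was made over a list. All members are accounted for; values in every library were to be given for the 5 members of each class with the smallest p-values and for Mki67, Pcna and Ccnd1, and those of other members were chosen after their values were seen. Of each further list, up to 4 genes of smallest p were to be named; Gins1, Mybl2 and Klf1 were chosen after their values were seen. Promoter windows are from the RefSeq table of build GRCr8, which differs from the build of the counts.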

Additional observations from a re-analysis of the deposited data

How the results depend on the processing

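Across 16 other fits, no member was called in any. Over all tested genes, 0 were called higher and 0 lower, but 186 and 94 with DESeq2, 1 higher with the replicate block, and 0 to 12 higher and 0 to 6 lower when each library was left out (12 and 6 for Quik-clot replicate 2 left out, 6 and 4 for AKOC replicate 1, 2 and 0 for AKOC replicate 2). G1/S members higher at an unadjusted p under 0.05 numbered 3, but 0 with the replicate block and 1 to 4 without a library (4 without Quik-clot replicate 2; 1 each without AKOC replicate 1, AKOC replicate 3, Quik-clot replicate 1 and Quik-clot replicate 3); 0 to 1 were lower. G2/M members higher at that level numbered 0, but 1 each with limma-voom, log2(FPKM + 1), log2(FPKM + 0.1) and the replicate block, and 0 to 7 without a library; 0 were lower, but 1 with log2(FPKM + 0.1) and 0 to 1 without a library. With the stricter filter 8 of 10 G1/S and 3 of 5 G2/M members still tested were positive. The G1/S median of 0.46 was 0.23 with that filter, 0.0699 with log2(FPKM + 1), 0.26 with log2(FPKM + 0.1) and 0.24 to 0.75 without a library; the G2/M median of 0.34 was 0.037 to 1.12 without a library. Without a library, 2 to 7 G1/S members lay above without overlap and 0 to 2 below. Of the G2/M members, 1 to 11 lay above and 1 below each time. Of all tested genes, 13.2% to 18.5% then lay above and 12.4% to 17.3% below. With all 6 libraries those shares were 9.53% and 8.84%. Leaving out each library for these counts was chosen after seeing the data. Signs turned for Aurkb (0.58 limma-voom, 0.12 log2(FPKM + 0.1), 0.36 replicate block, -0.48 to 1.38 without a library), Plk1 (0.355, 0.019 and 0.13 under the same 3, -0.51 to 0.81 without a library), Mki67 (0.0184 limma-voom, -0.76 to 0.52 without a library), Foxm1 (-0.0429 library totals, -0.00547 and -0.00926 with the FPKM pseudocounts of 1 and 0.1, -0.14 to 0.37 without a library), and, without a library, Top2a (-0.26 to 1.34), Bub1 (-0.0224 to 0.68) and Tk1 (-0.00188 to 0.28). The cause was not tested, beyond the smaller numbers of genes or libraries. Replicate numbers share nothing in the labels, and deviations of equal numbers correlated at -0.072, -0.082 and -0.201, so they were not used as pairs. Depth limits the G2/M genes most, with 1 to 239 counts a library.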
